A study of Mus musculus with 16 samples.

Results

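Expression of 10 genes of glucose uptake and glycolysis was followed in hearts that lacked 1 or both of the muscle ring finger proteins MuRF1 and MuRF2. MuRF1, encoded by Trim63, is a muscle ubiquitin ligase, and MuRF2, encoded by Trim55, is a related protein of the sarcomere. The genes are the glucose transporters Slc2a1 (Glut1) and Slc2a4 (Glut4), the hexokinases Hk1 and Hk2, and the muscle phosphofructokinase Pfkm. Further along the pathway they are the phosphoglycerate mutase Pgam2, the enolase Eno3, the pyruvate kinase Pkm2 (the array's older name for Pkm) and the lactate dehydrogenase subunits Ldha and Ldhb. Members were all probes whose gene name in the array files was 1 of these 10. They came to 17 of the 41174 probes, and all 10 genes were among the 12331 genes tested.

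RNA of whole hearts from 12 week old mice was measured on 16 two-colour arrays. Wild type mice had 2 functional alleles of each gene, and double null mice had none of either. MuRF1 null MuRF2 het mice had 0 MuRF1 and 1 MuRF2 allele, and MuRF1 het MuRF2 null mice had 1 MuRF1 and 0 MuRF2 alleles. The design calls the groups matched for strain, the strain of the hearts is not named and no promoter or cell type that would limit the deletions is named. Each group had 4 arrays, labelled as biological replicates, with heart RNA in Cy5. The Cy3 channel held a common reference, a pool of RNA from entire C57BL/6 pups at postnatal day 1. Every value below is a log2 ratio of heart to that reference unless it is called a difference, so 1 unit is a factor of 2, and no array had the dyes swapped.

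Glucose enters heart muscle cells through Glut1 and, after insulin or contraction, through Glut4, which moves from vesicles to the cell surface. Hexokinase traps glucose as glucose 6-phosphate, phosphofructokinase commits it to glycolysis, and pyruvate kinase makes ATP and pyruvate. Lactate dehydrogenase interconverts pyruvate and lactate, with the Ldhb subunit favoured in adult heart and Ldha in tissues that release lactate. The adult heart burns mainly fatty acids, and the balance of fuels shifts towards glucose in the fetal and the overloaded heart.

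Ldha was read by a pair of probes that gave different results, so their sequences are shown first, 5′ to 3′. The file places A_51_P364146 at chr7:43030257-43031186, plus strand, an interval of 930 bases for a probe of 60, so its bases are not contiguous in the genome. A_51_P364140 lies 533 bases further downstream at chr7:43031720-43031779, plus strand. Its first 30 bases are printed, and no capitals are used.
A_51_P364146 (Ldha, whole probe): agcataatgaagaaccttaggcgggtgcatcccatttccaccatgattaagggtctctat
A_51_P364140 (Ldha, bases 1 to 30): tatatgtgtctgtagtgtgcattgcaatat

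The probes behind the 3 falls described next are shown by their first 30 bases of 60. Hk2 was read at chr6:82750613-82750672 on the minus strand, Pfkm at chr15:98135465-98135524 on the plus strand and Slc2a4 at chr11:70024145-70024204 on the minus strand. No source used here names the build of these coordinates, and the exon each probe lies in was not analysed here. The probe coordinates do not match GRCm38.p6, the build of the promoter windows below, so these positions cannot be compared.
A_51_P204080 (Hk2, bases 1 to 30): tagtgagcgttttgtcatcatgtacagtag
A_51_P117995 (Pfkm, bases 1 to 30): acaggctgggtctctctagtgctacggcta
A_51_P217498 (Slc2a4, bases 1 to 30): gttttgaagaacggatagggagcagaaacc

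Array brightness differed between groups and touches every comparison with double null or MuRF1 null MuRF2 het hearts. Cy5 signal was well above background for 15171 to 16664 probes per wild type array and 16129 to 17391 per MuRF1 het MuRF2 null array. It was so for 6037 to 14503 in double null and 6402 to 15067 in MuRF1 null MuRF2 het hearts, the dimmest being replicate 2 of the former and replicate 1 of the latter. Wild type and double null arrays shared slides 1 and 3 (2 arrays of each group on each), whereas each of the other groups filled a slide of its own, where genotype and slide cannot be told apart. The targeted gene Trim63 was 3.36 ± 0.14 (SE) lower in double null than in wild type hearts (limma adjusted p = 8.11e-10) and 3.27 ± 0.14 lower in MuRF1 null MuRF2 het hearts (adjusted p = 1.21e-09). Which part of Trim55 was deleted is not stated in the labels, and Trim55 did not pass (0.37 ± 0.25, adjusted p = 0.276), so its probe checks nothing. All probes used for the 10 genes were well above background on all 16 arrays, and none was saturated.

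**Figure D1:**
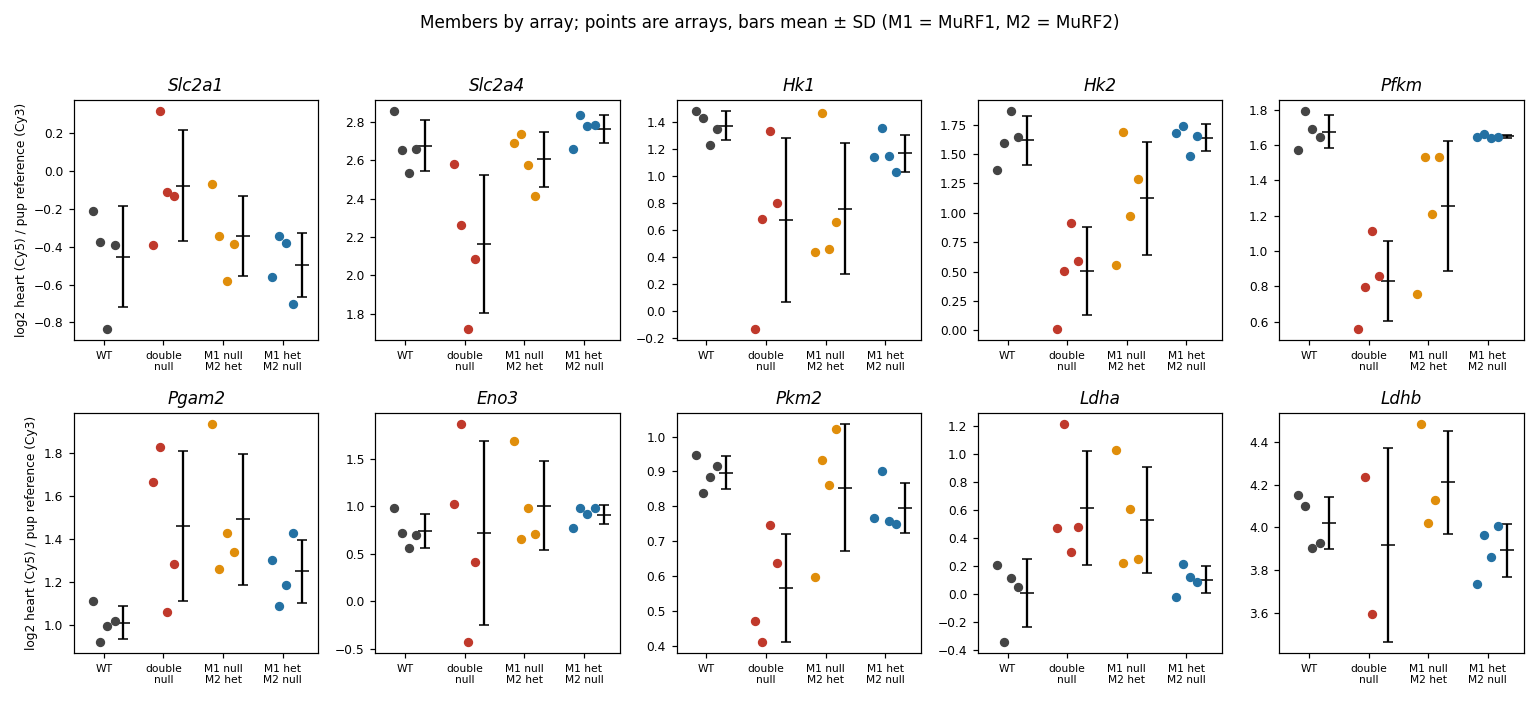
Log2 ratio of heart (Cy5) to pup reference (Cy3) on the y axis for the 10 genes, 1 point per array in the 4 genotype groups, with the group mean ± SD beside the points. Hk2 and Pfkm of all 4 double null arrays lie below all 4 wild type arrays; 3 arrays without a usable Ldhb spot are missing from its panel.

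Double null hearts were set against wild type to see what differs when both proteins are lost. Hk2, Pfkm, Slc2a4 and Pkm2 fell and Ldha rose, so 5 of the 10 genes changed at an adjusted p under 0.05 (limma, Benjamini-Hochberg over all genes). In the same comparison 22.2% of all genes tested passed. The falls were 2.17-fold for Hk2, 1.80-fold for Pfkm, 1.43-fold for Slc2a4 and 1.26-fold for Pkm2, and the rise of Ldha was 1.53-fold. Arrays of the groups did not overlap for 4 of the 10 genes (Hk2, Pfkm, Pkm2 and Ldha), against 25.5% of all genes. The median difference of the 10 genes was -0.22 and that of all genes 0.01. Without both dimmest arrays the 5 named genes passed, where 3610 of 12330 genes did. Ldhb was at -0.42 there, with replicate 4 as its only double null array. Without double null replicate 2, wild type replicate 3 or wild type replicate 4 alone, Hk2, Pfkm and Slc2a4 were the 3 that passed. Those fits passed 2300 of 12330, 1554 of 12331 and 1801 of 12331 genes, in that order.

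Hk2 encodes the insulin-regulated hexokinase of heart and skeletal muscle. Its ratios were 1.36, 1.60, 1.87 and 1.65 in wild type hearts and 0.01, 0.50, 0.91 and 0.59 in double null hearts. All 4 double null arrays lay below all 4 wild type arrays, with replicate 1 the lowest. Hk2 fell by 1.12 ± 0.21 (adjusted p = 0.00222). The difference was -1.22 on slide 1 (adjusted p = 0.123) and -1.01 on slide 3 (adjusted p = 0.000348).

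Pfkm, the muscle subunit of the committing enzyme, stood at 1.57, 1.79, 1.69 and 1.64 in wild type and at 0.56, 0.79, 1.11 and 0.86 in double null hearts. The groups did not overlap, and replicate 3 was the double null array nearest to wild type, as for Hk2. Pfkm fell by 0.84 ± 0.15 (adjusted p = 0.00135). On slide 1 the difference was -1.01 (adjusted p = 0.116) and on slide 3 it was -0.68 (adjusted p = 0.00234).

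Slc2a4, the insulin-responsive transporter, was measured in 10 spots per array. Its means over those spots were 2.86, 2.65, 2.54 and 2.66 in wild type and 2.58, 2.26, 1.72 and 2.08 in double null hearts. Double null replicate 1 lay inside the wild type range, and the other 3 lay below it. Slc2a4 fell by 0.51 ± 0.14 (adjusted p = 0.0173), with -0.33 on slide 1 (adjusted p = 0.35) and -0.69 on slide 3 (adjusted p = 0.00359). With scaling between arrays the difference was -0.22 (adjusted p = 0.53).

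Pkm2, pyruvate kinase, was at 0.95, 0.84, 0.88 and 0.92 in wild type and at 0.47, 0.41, 0.75 and 0.64 in double null hearts, without overlap. It fell by 0.33 ± 0.10 (adjusted p = 0.0236), with -0.45 on slide 1 (adjusted p = 0.192) and -0.21 on slide 3 (adjusted p = 0.247). Its second probe fell by 0.37 ± 0.11 (adjusted p = 0.0314), in a fit of all probes in which 20.8% passed. The adjusted p of the first probe was between 0.0524 and 0.0609 without double null replicate 1 or 2 or without wild type replicate 1, 3 or 4.

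Ldha was the member that rose, on the probe with the brighter Cy5 signal, A_51_P364140. That probe read 0.20, -0.35, 0.11 and 0.05 in wild type and 0.47, 1.21, 0.30 and 0.48 in double null hearts. The groups did not overlap, although double null replicate 3 lay just above wild type replicate 1, and double null replicate 2, the dimmest array, stood far above the rest. The rise was 0.61 ± 0.20 (adjusted p = 0.0373), and it was 0.91 on slide 1 and 0.31 on slide 3 (adjusted p = 0.207 and 0.0975). With slide as a block the adjusted p was 0.0632. It was 0.41 without double null replicate 2 (adjusted p = 0.0985), and -1.09 with median centring. Without wild type replicate 2, 3 or 4 or double null replicate 4 the adjusted p was 0.115, 0.0643, 0.0685 and 0.0533.

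The upstream Ldha probe, A_51_P364146, gave no such difference. It read -0.03, -0.23, 0.01 and -0.06 in wild type and -0.05, -0.02, -0.05 and -0.16 in double null hearts. The groups overlapped, and the difference was 0.00 ± 0.09 (95% interval -0.19 to 0.19, adjusted p = 0.994). That interval ends just below the lower end of the downstream probe's own, 0.20 to 1.02. With the mean of both probes Ldha was at 0.31 (adjusted p = 0.106).

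**Figure D2:**
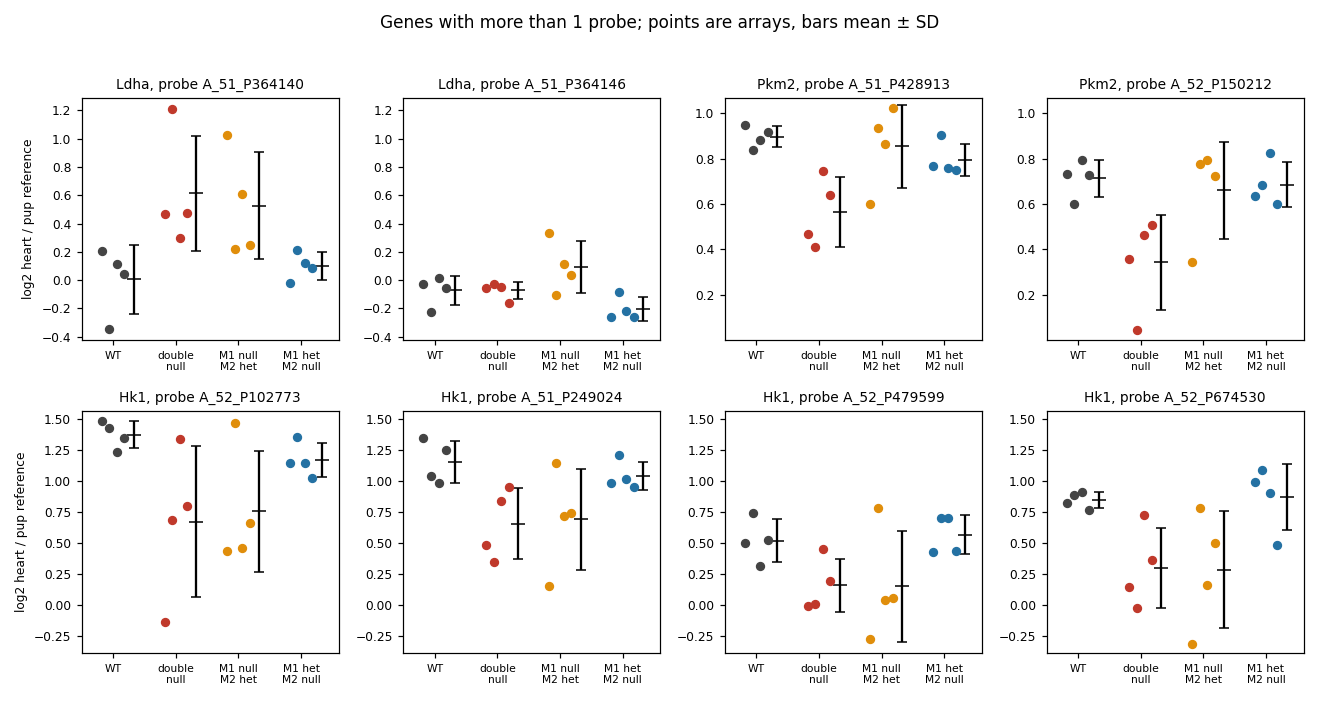
Log2 ratio of heart to pup reference by array for each kept probe of Ldha, Pkm2 and Hk1, with group means ± SD; panels of a gene share the y axis. The Ldha probes differ in double null hearts (means 0.61 and -0.07), while both Pkm2 probes are lower there.

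The other 5 genes did not pass in double null hearts. Hk1, the widely expressed hexokinase, was at 1.37 ± 0.11 (SD, n = 4) in wild type and 0.67 ± 0.61 in double null hearts, where single arrays ran from -0.14 to 1.34. Its difference was -0.70 ± 0.25 (adjusted p = 0.0552). It was -0.43 without double null replicate 1 (adjusted p = 0.154) and passed at -0.92 without double null replicate 3 (adjusted p = 0.0119). It also passed without MuRF1 null MuRF2 het replicate 1 or 2 (adjusted p = 0.043 and 0.0266). The other 3 kept Hk1 probes differed by -0.50, -0.36 and -0.55 (adjusted p = 0.0519, 0.149 and 0.0635), all in the same direction. With the mean of its probes Hk1 passed (-0.53, adjusted p = 0.0489).

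Slc2a1, the basal glucose transporter, was at -0.45 ± 0.27 in wild type and -0.08 ± 0.29 in double null hearts, a difference of 0.38 ± 0.16 (adjusted p = 0.0926). It was 0.48 without double null replicate 1 (adjusted p = 0.0499), 0.24 without double null replicate 2 and 0.25 without wild type replicate 3. Pgam2, the muscle phosphoglycerate mutase, was at 1.01 ± 0.08 and 1.46 ± 0.35, a difference of 0.45 ± 0.16 (adjusted p = 0.0554), and with slide as a block it passed (adjusted p = 0.0455). Pgam2 also passed without double null replicate 3 (0.58, adjusted p = 0.0142) or MuRF1 null MuRF2 het replicate 1 (adjusted p = 0.0224). Eno3, the muscle enolase, was the most scattered member: double null arrays read 1.02, 1.86, -0.43 and 0.41 against 0.56 to 0.98 in wild type. Its difference of -0.02 ± 0.34 (adjusted p = 0.974) has a 95% interval of -0.74 to 0.71. Ldhb, the heart subunit of lactate dehydrogenase, was at 4.02 ± 0.12 in wild type hearts, that is far above the pup reference. In double null hearts it read 4.24 and 3.60 on replicates 2 and 4, the only arrays of the group whose Ldhb spot was not marked as irregular, and differed by -0.10 ± 0.17 (adjusted p = 0.687).

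Several members moved with array brightness within the groups as well as between them. Over the 16 arrays the number of probes above background correlated with Ldha at r = -0.94, Pgam2 at -0.85, Pfkm at 0.83, Hk2 at 0.79 and Slc2a4 at 0.33. After group means were subtracted the same values were -0.90, -0.88, 0.72, 0.62 and -0.31, and Eno3 stood at -0.87. All of these points share the probe count of their array, and the correlations are given as a description. With that probe count as a covariate the difference of double null from wild type was -0.74 for Hk2 (adjusted p = 0.0214), -0.55 for Pfkm (adjusted p = 0.0112) and -0.63 for Slc2a4 (adjusted p = 0.0159). Under the same covariate Pkm2 was at -0.14 (adjusted p = 0.304) and Ldha at 0.10 (adjusted p = 0.616), while Eno3 (-0.90, adjusted p = 0.0113) and Ldhb (-0.58, adjusted p = 0.0272) passed.

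**Figure D3:**
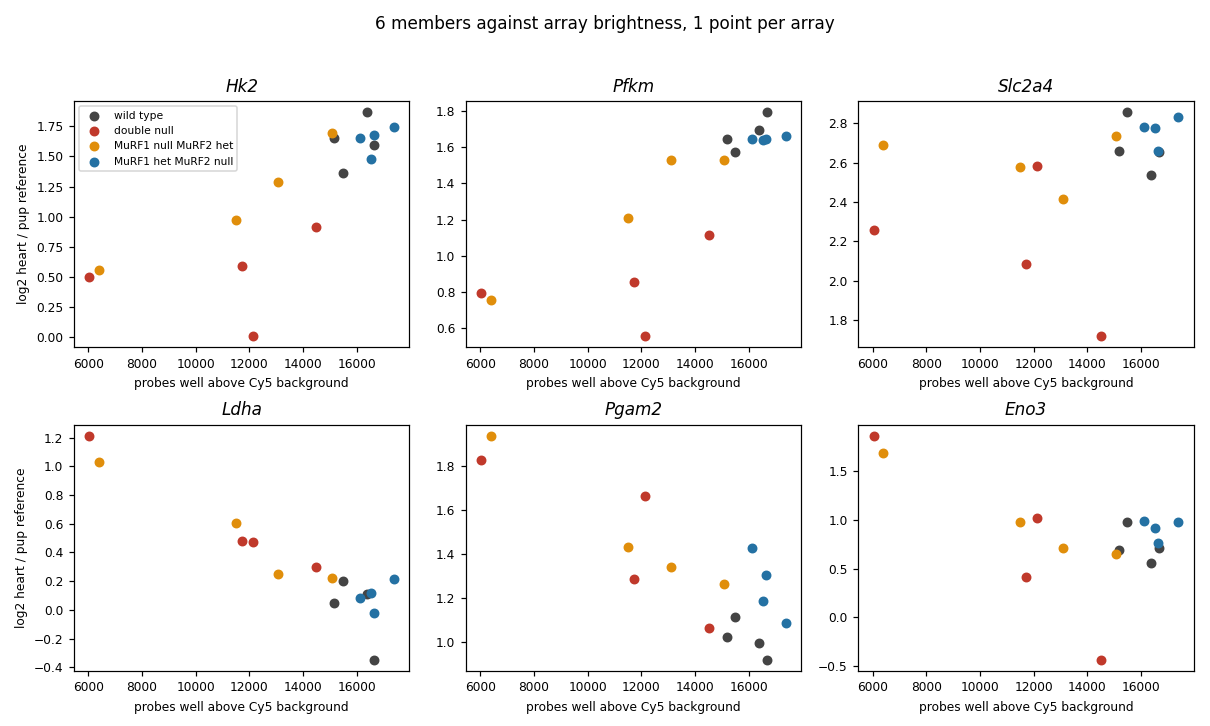
Log2 ratio of heart to pup reference (y axis) against the number of probes well above Cy5 background on the array (x axis) for 6 of the genes, 1 point per array coloured by genotype. Ldha falls with brightness over all arrays, whereas Slc2a4 of the double null array with 14503 probes is the lowest of all.

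Across the 34 alternative ways of processing the arrays, single arrays left out included, Hk2 and Pfkm passed in 33 each, Slc2a4 in 31, Pkm2 in 25 and Ldha in 16. Hk2 ranged from -2.36 to -0.74 and Pfkm from -2.32 to -0.55, while Ldha ranged from -1.09 to 0.91.

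**Figure D4:**
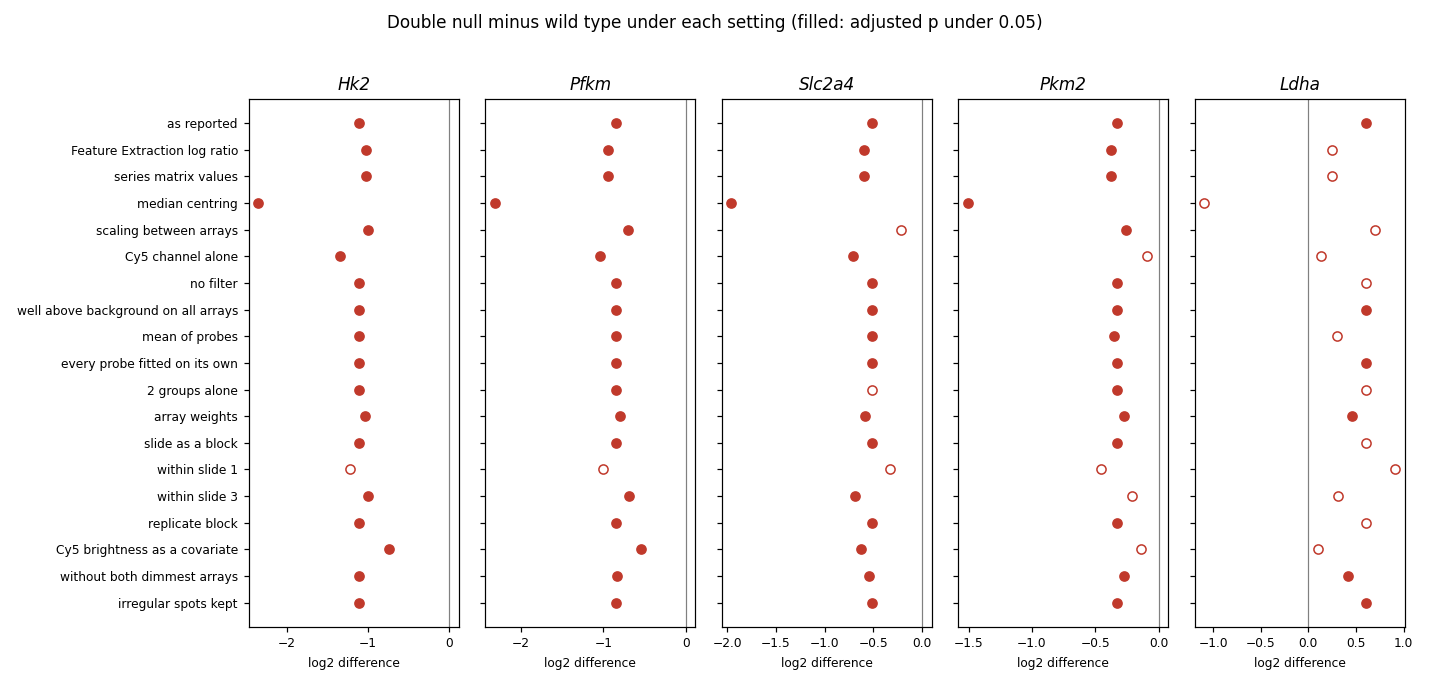
Log2 difference of double null from wild type hearts (x axis of each panel) under each way of processing the arrays (rows), for the 5 genes that passed as reported; filled points have an adjusted p under 0.05. Hk2 and Pfkm are open on slide 1 alone, while Ldha is open in most rows and is at -1.09 with median centring.

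Markers of other cell types differed between the same groups. Of 8 endothelial markers 7 fell in double null hearts, with a summed ratio (linear scale) of 8.68 to 10.4 against 15.6 to 15.8 in wild type, and 3 of 4 atrial markers rose (21.7 to 99.9 against 4.68 to 5.94; 1 rose with median centring). In this comparison 22.2% of all genes passed. With brightness as a covariate 4 of the 8 endothelial markers fell, and 1 atrial marker rose, Nppa (2.36). With that covariate 1039 of 12331 genes fell and 796 rose. Under it Myl4 was at 0.18 and Myl7 at 0.02 (adjusted p = 0.299 and 0.922). Of 9 fast skeletal muscle markers 1 rose and 2 fell (2.85 to 5.83 against 6.32 to 8.12). The summed ratio and the single markers point in opposite directions there, since 7 of the 9 estimates were above 0 and their median difference was 0.68. Pvalb was not above background on enough arrays to be tested. Of 8 cardiomyocyte markers 2 fell (151 to 229 against 180 to 205). Of 7 fibroblast markers 2 rose, of 5 adipocyte markers 1 rose, of 4 smooth muscle markers 1 rose and 1 fell, and of 6 macrophage and 4 red blood cell markers none passed in limma (2 and 2 at an unadjusted p under 0.05, as 38.5% of all genes). The defining markers Lep and Epb42 were not above background on enough arrays to be tested. The part of these markers in the members' differences was not tested, and in whole hearts fewer cells of a type and less RNA per cell cannot be told apart.

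In MuRF1 null MuRF2 het hearts, where 1 MuRF2 allele is left, none of the 10 genes passed against wild type in limma (1.03% of all genes did). At an unadjusted p under 0.05 were 5 of the 10, against 23.1% of all genes. Groups did not overlap for 3 of the 10 (Pfkm, Pgam2 and Ldha), against 12.7% of all genes. Pfkm read 0.76, 1.53, 1.21 and 1.53, all below wild type, and differed by -0.42 ± 0.15 (adjusted p = 0.132). Hk2 read 0.56, 1.69, 0.97 and 1.28, with replicate 2 inside the wild type range, and differed by -0.49 ± 0.21 (adjusted p = 0.18). Hk1 differed by -0.62 ± 0.25 (adjusted p = 0.169), Pgam2 by 0.48 ± 0.16 (adjusted p = 0.122) and Ldha by 0.52 ± 0.20 (adjusted p = 0.147). Slc2a4 was at 2.61 ± 0.14 (SD, n = 4) against 2.68 ± 0.13 in wild type, a difference of -0.07 ± 0.14 (SE; 95% interval -0.37 to 0.22). Without replicate 2 of this group, its brightest array, 4 of the 10 passed, where 1498 of 12331 genes did. They were Hk1 (-0.85), Hk2 (-0.68), Pfkm (-0.51) and Pgam2 (0.56), with adjusted p between 0.0319 and 0.0475. Without replicate 1, the dimmest array of this group, none of the 10 passed, and 29 of 12331 genes did. Hk2 was then at -0.30, Pfkm at -0.25, Pgam2 at 0.33 and Ldha at 0.35 (adjusted p between 0.337 and 0.481).

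In MuRF1 het MuRF2 null hearts none of the 10 genes passed against wild type in limma, and none had an unadjusted p under 0.05 (16.2% of all genes did). Of all genes 1.95% passed. Hk2 was at 1.64 ± 0.11 (SD, n = 4) against 1.62 ± 0.21 in wild type, and Pfkm at 1.65 ± 0.01 against 1.68 ± 0.09. The differences were 0.02 ± 0.21 for Hk2 (SE; 95% interval -0.42 to 0.46) and -0.03 ± 0.15 for Pfkm (-0.34 to 0.28). The largest estimate of the 10 was 0.24 ± 0.16 for Pgam2 (adjusted p = 0.52).

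**Figure D5:**
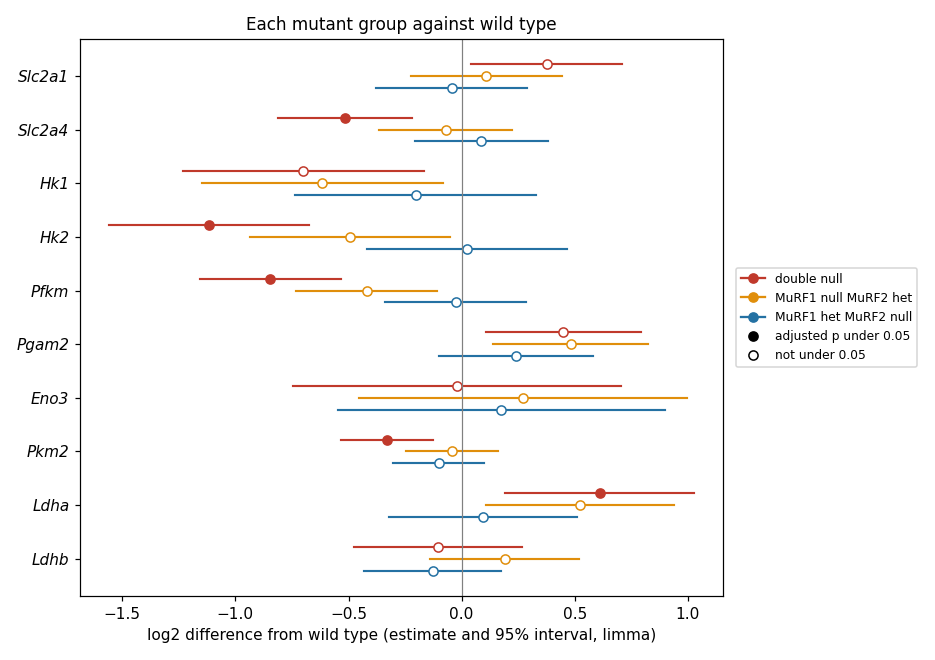
Log2 difference of each mutant group from wild type (x axis) for the 10 genes, as the limma estimate with its 95% interval; filled points passed at an adjusted p under 0.05. Filled points appear for double null hearts only: Slc2a4, Hk2, Pfkm and Pkm2 below 0 and Ldha above.

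The mutant groups were also compared with each other. Between double null and MuRF1 null MuRF2 het hearts, which differ by 1 MuRF2 allele, none of the 10 genes passed in limma (0.349% of all genes did). At an unadjusted p under 0.05 were 4 of the 10, against 9.68% of all genes. Hk2 differed by -0.62 ± 0.21, Slc2a4 by -0.44 ± 0.14, Pfkm by -0.43 ± 0.15 and Pkm2 by -0.29 ± 0.10 (adjusted p = 0.272, 0.229, 0.293 and 0.266). Without MuRF1 null MuRF2 het replicate 1 Hk2 (-0.81), Pfkm (-0.59) and Pkm2 (-0.37) passed with adjusted p of 0.0331, 0.0135 and 0.0346. Without double null replicate 1 Slc2a4 passed (-0.58, adjusted p = 0.0372). These fits passed 358 and 115 of 12331 genes.

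Between double null and MuRF1 het MuRF2 null hearts, which differ by 1 MuRF1 allele, Hk2 fell by 1.14 ± 0.21 (adjusted p = 0.00161), Pfkm by 0.82 ± 0.15 (adjusted p = 0.00141) and Slc2a4 by 0.60 ± 0.14 (adjusted p = 0.00616). These 3 of 10 stand beside 26.3% of all genes. Arrays did not overlap for 5 of the 10, these 3 with Pkm2 (lower) and Ldha (higher), against 28.8% of all genes. Endothelial markers fell here too (7 of 8, median difference -0.61), as did 3 of 8 cardiomyocyte markers, and their part was not tested. As reported, 6 of the 10 had an unadjusted p under 0.05, against 40% of all genes. Here 6 of the 10 passed without MuRF1 null MuRF2 het replicate 1, where 3940 of 12330 genes did. Without double null replicate 3 the count was also 6, beside 3796 of 12330 genes. With median centring none of the 10 passed (5 at an unadjusted p under 0.05, as 3274 of 12330 genes). None of the 10 passed when the MuRF1 null MuRF2 het group was set against the MuRF1 het MuRF2 null group (8.54% of all genes did). In that comparison 3 of the 10 were at an unadjusted p under 0.05, against 28.3% of all genes. Hk2 and Pfkm passed there without MuRF1 null MuRF2 het replicate 2 (-0.70 and -0.48), where 2096 of 12330 genes did. These comparisons share arrays with those against wild type.

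In order of group means, Hk2 was 1.64 ± 0.11 (SD, n = 4) in MuRF1 het MuRF2 null, 1.62 ± 0.21 in wild type, 1.13 ± 0.48 in MuRF1 null MuRF2 het and 0.50 ± 0.37 in double null hearts. For Pfkm wild type was highest with 1.68 ± 0.09, MuRF1 het MuRF2 null hearts had 1.65 ± 0.01, MuRF1 null MuRF2 het hearts had 1.26 ± 0.37 and double null hearts 0.83 ± 0.23. No neighbours in either order passed the test of their difference. Ldhb had the order 4.21 ± 0.24 (n = 3), 4.02, 3.92 ± 0.45 (n = 2) and 3.89 ± 0.12 for MuRF1 null MuRF2 het, wild type, double null and MuRF1 het MuRF2 null hearts, with no pair passing.

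Pairs of related proteins were then set against each other within each array, with an exact two-sided permutation test for each mutant group against wild type and adjustment over the 9 tests. The ratio of Slc2a1 minus that of Slc2a4 was -3.13 ± 0.16 (SD, n = 4) in wild type and -2.24 ± 0.52 in double null hearts. Every double null array lay above every wild type array, a shift of 0.89 (exact permutation p = 0.0286, the smallest possible with 4 against 4; adjusted p = 0.2). Hk1 minus Hk2 shifted by 0.41 (exact p = 0.0571, adjusted p = 0.2), with overlap. Ldha minus Ldhb shifted by 0.94 over the 2 double null arrays that gave Ldhb (exact p = 0.0667, the smallest possible with 2 against 4; adjusted p = 0.2). That shift uses the downstream Ldha probe, and with the mean of both Ldha probes it was 0.51. None of the 9 tests passed after adjustment, and the other 6 had exact p between 0.143 and 0.6. With 0.0286 as the smallest exact p, a complete separation of 1 pair alone could not pass over 9 tests. The lack of a pass therefore decides nothing about these shifts.

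Genes around the pathway were taken from lists. Of 15 other glycolysis enzymes 2 rose in double null hearts and none fell: Adpgk, the ADP-dependent glucokinase (0.34, adjusted p = 0.0191), and the aldolase Aldoc (0.46, adjusted p = 0.0391). Their median difference was 0.11. With median centring both rises were lost (-0.05 and -0.11, neither passing) and 7 of the 15 fell, where 6867 of 12331 genes did. With the Feature Extraction log ratio none rose and 1 fell, beside 720 and 1445 of 12331 genes. Of 9 other carriers of glucose, lactate and pyruvate 3 fell and none rose: the transporters Slc2a12 (-0.45, adjusted p = 0.00377) and Slc2a8 (-0.59, adjusted p = 0.00856), and basigin, Bsg, the chaperone of lactate carriers (-0.62, adjusted p = 0.0296). With brightness as a covariate Slc2a12 fell, while Slc2a8 was at -0.34 and Bsg at -0.30 (adjusted p = 0.0988 and 0.312). With the Feature Extraction log ratio Slc2a12 was again the only fall of the 9. The carriers' median was -0.08 (0.04 with scaling between arrays), and the share of all genes that rose was 10.2% and that fell 12%.

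Of 19 genes of insulin signalling and Glut4 traffic 6 fell and none rose in double null hearts, with a median of -0.29. Of all genes 12% fell and 10.2% rose. Tbc1d4, the Akt substrate that holds Glut4 vesicles back, fell by 0.74 ± 0.12 (adjusted p = 0.000868). Pik3r1, a regulatory subunit of phosphoinositide 3-kinase, was at -0.63 (adjusted p = 0.00261), Akt1 at -0.44 (adjusted p = 0.00724) and Mef2d, a muscle transcription factor, at -1.09 (adjusted p = 0.00759). Akt2 (-0.29) and Mef2a (-0.44) were the other falls. All 6 also fell with scaling between arrays, where 1433 of 12331 genes fell. Within slide 3 the list had 8 falls and no rise, beside 1297 falls and 1079 rises over 12326 genes. With brightness as a covariate Tbc1d4, Pik3r1 and Akt1 fell, and Mef2d (-0.74), Akt2 (-0.22) and Mef2a (-0.23) did not pass (adjusted p = 0.0731, 0.0828 and 0.196). Of 16 regulators of glycolytic flux 1 rose and 3 fell, which is near the 22.2% of all genes that passed in this comparison. Myc rose by 0.52 (adjusted p = 0.00504). Median centring left Myc at 0.05 (adjusted p = 0.537). The falls were of Prkaa2, a catalytic subunit of AMP-activated kinase (-0.81, adjusted p = 0.023), the muscle fructose bisphosphatase Fbp2 (-0.59, adjusted p = 0.0165) and Mlxipl, which encodes the glucose sensor ChREBP (-0.30, adjusted p = 0.0432). With brightness as a covariate Prkaa2 was at -0.21 and Mlxipl at -0.20 (adjusted p = 0.361 and 0.264), and Fbp2 fell. The lists' median in double null hearts was -0.03 for the regulators, against 0.01 for all genes.

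In MuRF1 null MuRF2 het hearts Tbc1d4 alone of these 4 lists passed (-0.60, adjusted p = 0.0315), and in MuRF1 het MuRF2 null hearts none did in limma. At an unadjusted p under 0.05 the counts were 3 of 15, 3 of 9, 2 of 16 and 6 of 19 in the former and 2, 2, 5 and 5 in the latter, in the order enzymes, carriers, regulators and insulin signalling. The shares of all genes at that level were 23.1% in the former and 16.2% in the latter.

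The patterns of single members were compared with all other named genes by Pearson correlation over the arrays (10868 genes without missing values, n = 16). Hk2 and Pfkm had an r of 0.97 with each other, and 0.89 after group means were subtracted. The genes most like Hk2 were Acacb, the mitochondrial acetyl-CoA carboxylase, and Aifm1, a mitochondrial flavoprotein (0.98 each), and those most like Pfkm were Aifm1 and Hdlbp (0.98 and 0.97). Slc2a4 was most like Taf7 and Ppargc1a, the coactivator PGC-1alpha (0.91 and 0.89). Eno3 was most like Etfb and Selenbp1 (0.93 each), Pgam2 like Hgfac and Ndufs5 (0.97 each), and Ldha like Ccne1 and Slc35b3 (0.98 each). The remaining pairs were Mtch1 and Wdr47 for Slc2a1 (0.90 and 0.89), Tecpr1 and Xirp1 for Hk1 (0.95 each), and Dcun1d2 and Mtfr1l for Pkm2 (0.93 and 0.90). Ldhb, over 13 arrays, was most like Ndufs3 and Uqcrc1 (0.94 and 0.92). The points share array brightness and group, and the values are descriptions.

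Hk2 and Pfkm moved together, and Ldha moved the other way on its downstream probe alone. The 250 bases before the RefSeq start sites of these genes are shown (GRCm38.p6). RefSeq windows were matched for 9 of the 10 members, 15 windows in all. Capitals mark ACGTG, the core of the hypoxia response element, on either strand, and so also CACGTG, the E-box that factors such as Myc and ChREBP bind, which holds ACGTG on both strands. Among all 32851 windows of this length 16.6% hold ACGTG and 6.02% hold CACGTG. The Hk2 window is chr6:82774455-82774704, minus strand. For Pfkm the most upstream of 4 start sites is shown, chr15:98092339-98092588, plus strand, and for Ldha the most upstream of 2, chr7:46845554-46845803, plus strand. Which start site the hearts used was not measured.
Hk2: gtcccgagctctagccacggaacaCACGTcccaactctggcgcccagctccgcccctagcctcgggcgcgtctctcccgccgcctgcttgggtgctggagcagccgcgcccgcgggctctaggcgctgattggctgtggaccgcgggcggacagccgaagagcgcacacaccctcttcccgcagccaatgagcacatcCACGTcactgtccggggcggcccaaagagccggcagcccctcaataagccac
Pfkm: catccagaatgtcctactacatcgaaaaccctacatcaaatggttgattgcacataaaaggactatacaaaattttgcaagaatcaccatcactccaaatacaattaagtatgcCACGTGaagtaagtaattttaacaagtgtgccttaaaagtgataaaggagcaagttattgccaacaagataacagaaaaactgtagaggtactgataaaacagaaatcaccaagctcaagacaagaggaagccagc
Ldha: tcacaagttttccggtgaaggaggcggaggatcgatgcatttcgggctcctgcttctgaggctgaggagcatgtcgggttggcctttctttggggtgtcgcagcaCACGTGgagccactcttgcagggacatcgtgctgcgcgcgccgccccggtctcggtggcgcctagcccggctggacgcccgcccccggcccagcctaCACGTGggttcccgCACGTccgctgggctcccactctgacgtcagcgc

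Hk2 has 2 ACGTG matches and no CACGTG in its window, Pfkm has 1 CACGTG, and Ldha has 2 CACGTG and 1 further ACGTG match. The windows printed for Pfkm and Ldha are the only ones of these genes with CACGTG. Of the members' 15 windows 6 hold ACGTG and 2 hold CACGTG. The GC box GGGCGG, searched on both strands and present in 32.7% of all windows, was found 3 times before Hk2, 2 times before Ldha and 0 times in the Pfkm window. A match describes letters in the window and no binding was measured.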

How the data were processed

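Spot intensities of both colours were deposited by the authors as scanner output, per the file headers. A GenePix scan was read by Agilent Feature Extraction (9.1.3.1 on 12 arrays, and 9.5.3.1 on the other 4, those of MuRF1 het MuRF2 null hearts). Labelling started from 50 ng of total RNA, per the labels' protocols. The labelling text names Cy3 alone, and the channel entries, which put hearts in Cy5, were followed. The files also hold the authors' log10 ratio, and the deposited series matrix holds log2 ratios whose values follow that ratio minus each probe's median (r of 0.982 to 0.997 per array). How it was centred is unknown.

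Intensities were corrected by normexp (offset 50) and loess in limma 3.58.1 under R 4.3.3 (data.table, version 1.17.8), with control and irregular spots given no weight. Spots were averaged per probe (41174 probes), and probes well above Cy5 background on at least 4 of 16 arrays were kept (16810). Each gene took its kept probe with the highest mean Cy5 signal, which gave 12331 genes. Of all probes 22951 were named by accession, 6659 by symbol and 3109 by synonym in RefSeq (GRCm38.p6), and 8455 kept the file's name. The 6 comparisons were fitted with lmFit and eBayes over all 16 arrays, two-sided. A gene rose or fell where the adjusted p was under 0.05.

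On simulated data for double null against wild type, over 12331 genes, 38% of changes of 0.5 and 90% of changes of 1 (log2) were recovered, with 0.0577% of unchanged genes called. The simulated noise was independent between genes and had the same spread in every group. It held no shared array brightness, so these rates need not hold for the real arrays. The number of arrays limits the precision. Members and lists were chosen with earlier results of these data known. Members were always named, list genes were the up to 4 with the smallest p that passed, and the 2 most correlated genes were taken as alike. Akt2 and Mef2a were named after their values were seen. Arrays were not paired by replicate number, since the labels do not say that the numbers pair them. Alternatives covered the deposited ratios, centring, scaling, filters, probes, groups fitted, weights, slide, replicate block, brightness and each array left out. Keeping irregular spots was an alternative added after seeing the data. Figures were drawn with matplotlib.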

Additional observations from a re-analysis of the deposited data

Results flagged for a closer look

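A value of 1 array lay far from the other 3 of its group in 2 of the 38 groups of 4 arrays examined over the 10 genes, where chance gives about 1 in 20. Both are MuRF1 het MuRF2 null replicate 2. Pfkm was at 1.66 there against 1.64 on each of the other 3 arrays, and the gap is small because those 3 nearly coincide. Pkm2 was at 0.90 there against 0.77, 0.76 and 0.75, inside the wild type range of 0.84 to 0.95.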

How the results depend on the processing

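The falls of Hk2 and Pfkm in double null hearts kept their direction and passed in 33 of 34 alternatives, the exception being slide 1 alone (2 arrays a group, where limma called 0 of all genes; 2627 had an unadjusted p under 0.05). Slc2a4 passed in 31, Pkm2 in 25 and Ldha in 16 of 34. Counts below are of all 10 genes. In double null against wild type hearts 5 passed as reported, 3 with scaling between arrays (Hk2, Pfkm and Pkm2), 3 with these groups fitted alone (the same 3), 10 with array weights (which called 8149 of all genes) and 0 within slide 1 (6 at an unadjusted p under 0.05). Of all 12331 genes 2666 passed with scaling between arrays and 2014 with these groups alone. Leaving out 1 array gave 3 to 7: 3 without double null replicate 2 or wild type replicate 3 or 4. Over all genes these fits passed 1554 to 3689. With median centring the all-gene median lay at -0.49 in double null and -0.51 in MuRF1 null MuRF2 het hearts, and 6886 genes passed in the former, 0.276% of them higher, against 45.8% of 2737 as reported. With the Feature Extraction log ratio that median lay at -0.18, with 33.3% of 2165 higher. With median centring Ldha was at -1.09 in double null hearts, and Ldhb, Eno3 and Slc2a1 at -1.53, -1.59 and -0.83 in MuRF1 null MuRF2 het hearts, where 7 of the 10 passed (7374 of 12331 genes did). Array weights gave 5 there, 1 in MuRF1 het MuRF2 null hearts and, between mutants, 6, 9 and 2 (double null against MuRF1 null MuRF2 het, double null against MuRF1 het MuRF2 null, and the last pair). Over all genes array weights passed 3132, 3827, 2983, 7657 and 3452 in the same order. The brightness covariate gave 1 (Pgam2) in MuRF1 het MuRF2 null hearts and 1, 5 and 1 between mutants, with Ldhb at -0.50 in the second and Eno3 at -0.84 in the third of these comparisons. With that covariate 1503 of all genes passed in MuRF1 het MuRF2 null hearts, and 312, 2614 and 1367 between mutants. Ldhb was at -0.28 with array weights in the second. The Cy5 channel alone gave 1 in the first and 2 in the third, median centring gave 0 in the second, and leaving out both dimmest arrays gave 3 in the first. Over all genes these settings passed 314, 1846, 870 and 482 in the same order. Against wild type, leaving out 1 array gave 0 to 4 for MuRF1 null MuRF2 het and 0 for MuRF1 het MuRF2 null hearts. Between mutants it gave 0 to 3, 3 to 6 and 0 to 2. Over all genes the ranges were 23 to 1498, 69 to 417, 3 to 358, 2171 to 3940 and 225 to 2096 in the same order. With the replicate number as a block 4 of the 10 passed in double null hearts (2381 of 12331 genes did), with Ldha at an adjusted p of 0.0592. Same-numbered arrays did not deviate together in every pair, which does not settle whether the numbers are a pairing. The labels do not say. With irregular spots kept, Ldhb was at -0.25 in double null hearts (adjusted p = 0.291). The cause of these shifts was not tested.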

Other observations

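Glucose 6-phosphate and free glucose also feed glycogen, the pentose phosphate route and the polyol route. Of 13 genes of these routes 2 rose and 1 fell in double null hearts against wild type (limma). That is near the share of all genes that passed in this comparison, 22.2%. Akr1b3, the aldose reductase that makes sorbitol, rose by 0.63 ± 0.13 (adjusted p = 0.00466), and Sord, the dehydrogenase that uses sorbitol, fell by 0.78 ± 0.19 (adjusted p = 0.0115). Ugp2, which makes the UDP-glucose used for glycogen, rose by 0.78 ± 0.23 (adjusted p = 0.0265), with overlap of the groups. With median centring neither rise was seen (Akr1b3 -0.65 and Ugp2 -0.25, neither passing). With brightness as a covariate Ugp2 rose by 1.27 (adjusted p = 0.000797), while Akr1b3 was at 0.39 and Sord at -0.35 (adjusted p = 0.0507 and 0.149). In MuRF1 null MuRF2 het hearts none of the 13 passed (2 at an unadjusted p under 0.05), and in MuRF1 het MuRF2 null hearts Pgd, of the pentose phosphate route, fell by 0.39 (adjusted p = 0.0262). Of all genes 1.03% passed in the former, with 23.1% at an unadjusted p under 0.05, and 1.95% passed in the latter.

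Hk1 had 6 probes, of which 2 were set aside: A_52_P87141 was well above Cy5 background on 0 and A_52_P9337 on 1 of the 16 arrays. The 10 spots of the Slc2a4 probe differed within an array by an SD of 0.03 to 0.16, against an SD of 0.36 between double null arrays and 0.13 between wild type arrays.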
